A study of Mus musculus with 8 samples.

Results

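Tet1 knockout (KO) was compared with wild type (WT) in bulk RNA sequencing of stem and progenitor cells sorted from mouse femurs, with the sequencing round held as a block. All 8 libraries of the series entered the comparison, chosen by the genotype, population and round in their titles. They were 4 KO and 4 WT libraries, which form 4 pairs of the same population and round: SSC round 1, SSC round 2, BCSP round 1 and BCSP round 2. SSC are skeletal stem cells and BCSP are bone cartilage stromal progenitors, each isolated by flow cytometry. Genes were reported mainly where the KO minus WT difference had the same sign in all 4 pairs.

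The pups were neonates of 3 to 5 days, no treatment is named, and each of the 4 groups (WT SSC, KO SSC, WT BCSP, KO BCSP) held 2 libraries. Every sample, wild type included, carries the strain name B6;129S4-Tet1tm1.1Jae/J, so the labels set the groups apart by the genotype entry alone. They do not say whether the wild-type pups were littermates, which sex the pups were, or whether a library came from 1 animal or a pool. It is also not said whether SSC and BCSP of a round came from the same animals, so p-values measure only the spread between these libraries. Totals ran from 104782544 to 168004119 counts, and 22153 genes were tested. Levels are given in CPM, counts per 1e6 counts after TMM scaling, and are not corrected for gene length.

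TET1 is an enzyme that oxidises 5-methylcytosine at CpG sites, the first step of active DNA demethylation, and it also binds repressor complexes at CpG-rich promoters. The SSC gives rise to cartilage, bone and stroma, and the BCSP is a progenitor downstream of it. The sorted cells carried a cartilage signature in both genotypes: Col2a1, the main collagen of cartilage, ran from 241100 to 320600 CPM in WT and from 234800 to 324300 CPM in KO. Eng, the endoglin gene used to tell the populations apart, was at 2.53 to 3.89 CPM in the SSC libraries and at 25.7 to 50.5 CPM in the BCSP libraries. The blood cell antigen gene Ptprc was at 0 to 1.09 CPM in all 8 libraries.

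Since TET1 acts at CpG sites, the promoters of 4 of the genes described here are shown with each CG in capitals, from 250 bases before the start of the gene to 50 after it. The sequences are RefSeq's on GRCm38.p6, 5′ to 3′ on the strand of the gene. Cd59a and Adm2 were lower in KO, and Nes and Zfp365 were higher. Zfp365 also lies near Tet1.
Cd59a (chr2:104095551-104095850, plus strand): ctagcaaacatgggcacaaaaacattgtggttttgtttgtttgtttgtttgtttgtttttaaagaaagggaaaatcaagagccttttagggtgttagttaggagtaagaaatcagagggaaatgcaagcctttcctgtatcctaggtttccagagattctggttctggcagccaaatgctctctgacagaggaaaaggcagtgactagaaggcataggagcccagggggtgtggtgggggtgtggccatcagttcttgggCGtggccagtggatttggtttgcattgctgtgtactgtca
Adm2 (chr15:89322470-89322769, plus strand): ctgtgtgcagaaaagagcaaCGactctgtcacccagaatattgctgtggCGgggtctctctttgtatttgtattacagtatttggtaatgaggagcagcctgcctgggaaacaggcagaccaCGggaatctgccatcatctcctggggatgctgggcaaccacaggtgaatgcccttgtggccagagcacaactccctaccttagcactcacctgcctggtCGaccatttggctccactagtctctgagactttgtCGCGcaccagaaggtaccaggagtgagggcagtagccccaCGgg
Nes (chr3:87970843-87971142, plus strand): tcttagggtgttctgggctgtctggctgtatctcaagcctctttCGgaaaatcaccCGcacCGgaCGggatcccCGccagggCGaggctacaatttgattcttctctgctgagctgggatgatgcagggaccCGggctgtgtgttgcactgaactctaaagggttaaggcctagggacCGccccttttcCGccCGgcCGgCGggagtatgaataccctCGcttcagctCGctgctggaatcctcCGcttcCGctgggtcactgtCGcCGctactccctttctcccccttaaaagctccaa
Zfp365 (chr10:67912613-67912912, minus strand): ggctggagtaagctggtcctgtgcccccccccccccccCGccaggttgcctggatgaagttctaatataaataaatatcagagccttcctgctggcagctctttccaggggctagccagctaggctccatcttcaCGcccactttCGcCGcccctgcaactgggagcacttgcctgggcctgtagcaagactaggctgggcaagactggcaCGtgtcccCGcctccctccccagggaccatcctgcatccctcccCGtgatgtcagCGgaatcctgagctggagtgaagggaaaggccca

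CG, which reads the same on both strands, occurred 1 time in the Cd59a window, 7 times in Adm2, 18 times in Nes and 8 times in Zfp365. Of the 24 genes that passed the test with the same sign in every pair, 21 had a promoter in the RefSeq set. Trf, Pstpip2 and Tmem266 had none. Where several promoters were listed for a gene, as for Palld, Il18r1 and Spaca1, only the first was counted. The 10 higher genes held a median of 15.5 CG per window (range 2 to 22) and the 11 lower genes a median of 9 (range 1 to 16). Over the 13814 tested genes with a promoter the median was 18, and 99.1% held at least 1 CG. Over all 27025 promoters of this length 94.2% did. Methylation was not measured in these libraries.

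The targeted gene, Tet1 (chr10:62804570-62908996), did not pass the test. Its WT levels were 15.6 and 19.6 CPM in SSC (rounds 1 and 2) and 21.6 and 10.98 CPM in BCSP. Its KO levels were 7.26 and 11.8 CPM in SSC and 10.8 and 11.97 CPM in BCSP. Tet1 was lower in KO in 3 of the 4 pairs and slightly higher in the BCSP round 2 pair, so the groups overlapped. Its log2 fold change was -0.71 ± 0.23 (SE, edgeR adjusted p = 0.318). As background, the allele is understood to delete an internal exon, in which case reads over the rest of the gene would still be counted, and the total count of Tet1 is a weak check of genotype. Of the related genes, Tet3 was at 0.35 ± 0.17 on the log2 scale and did not pass either (edgeR adjusted p = 0.460).

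With population and round in the model, 28 of 22153 genes passed an edgeR adjusted p of 0.05, which is 0.126% of those tested. Of these, 10 (0.0451%) were higher in KO and 18 (0.0813%) were lower. The sign was the same in all 4 pairs for 24 of the 28, namely 10 higher (0.0451% of genes tested) and 14 lower (0.0632%). Among all tested genes, 20.5% had the same sign in all 4 pairs. All 24 were protein-coding, with a median level of 7.42 CPM, and their log2 changes had a median size of 1.27. In 18 of the 24 the KO and WT libraries did not overlap, which was true of 969 tested genes (4.37%, of which 2.13% with KO higher and 2.25% with KO lower). At an unadjusted p of 0.05, 11% of all tested genes passed, 5.41% higher and 5.61% lower.

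The count depended on the block and on single libraries. Without round in the model 1 gene passed, Trf. Without the WT SSC round 1 library 1 gene passed, without the WT BCSP round 2 library 359 did, and without the SSC round 1 pair none did (1394 at an unadjusted p of 0.05). DESeq2 called 310 genes with the same model, among them all 24, and limma-voom called 19, among them 18 of the 24. After a correction for exon length 38 genes passed, among them 19 of the 24. Icam1, Palld, Cxcl1, Cxcl12 and Kcne1l did not pass there.

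**Figure D1:**
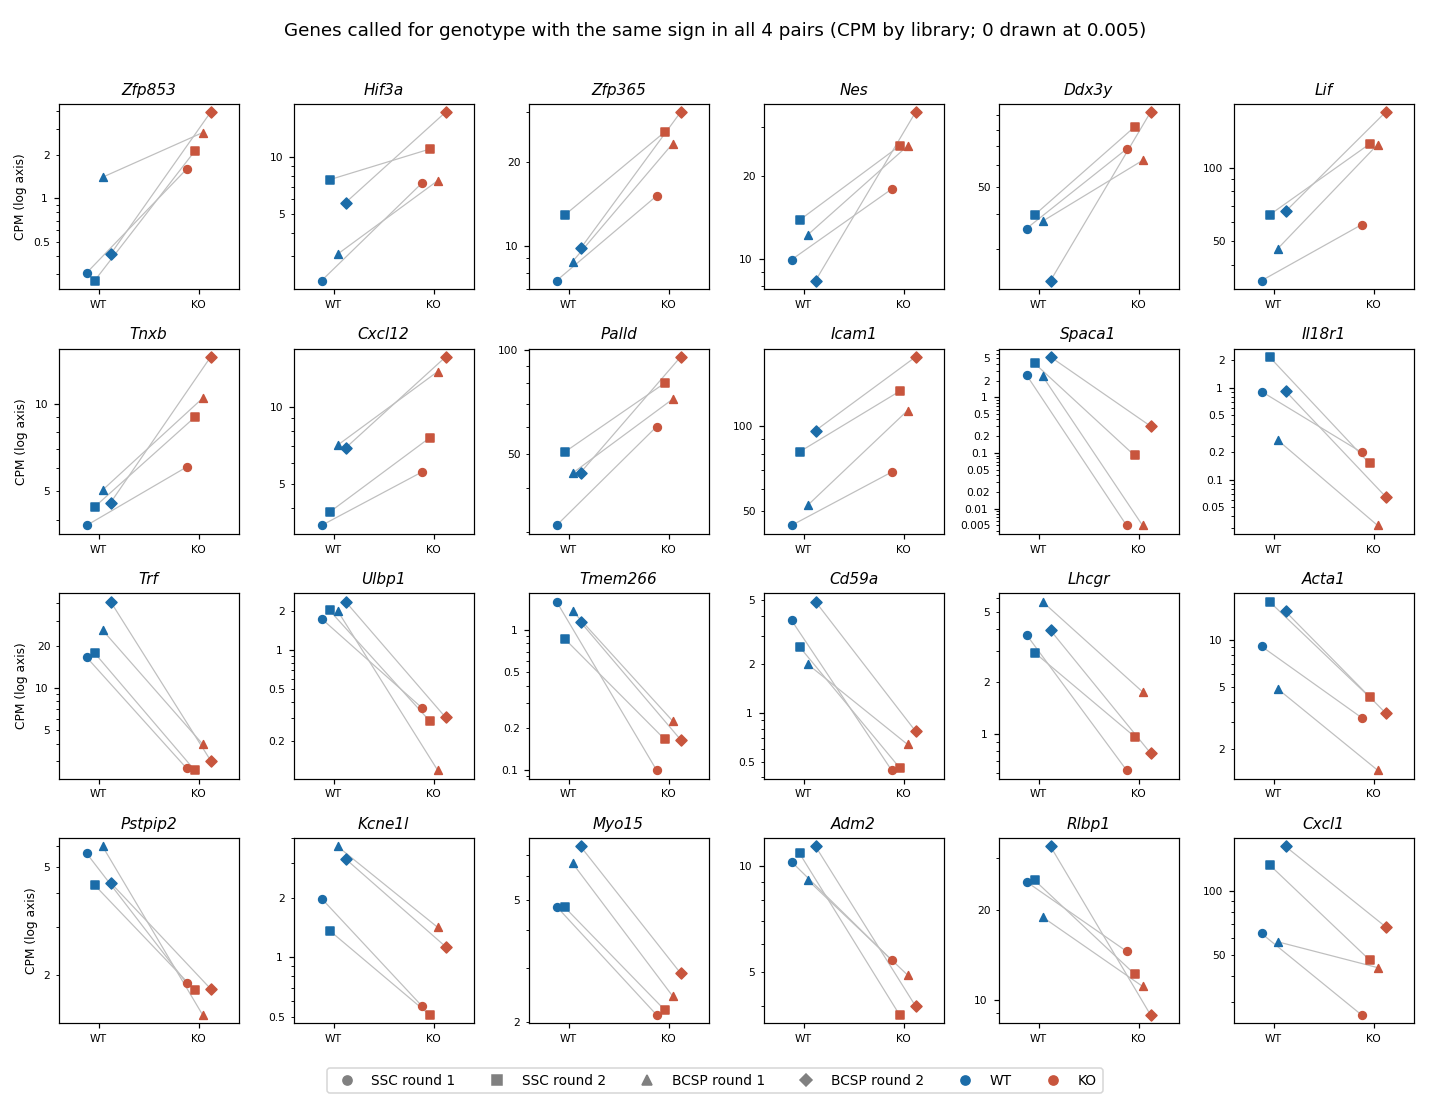
Level of each of the 24 genes in every library, in CPM on a log axis with its own range per gene, with WT on the left and KO on the right. Grey lines join libraries of the same population and round, and all lines of a gene run in 1 direction because that was the rule for showing it.

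**Figure D2:**
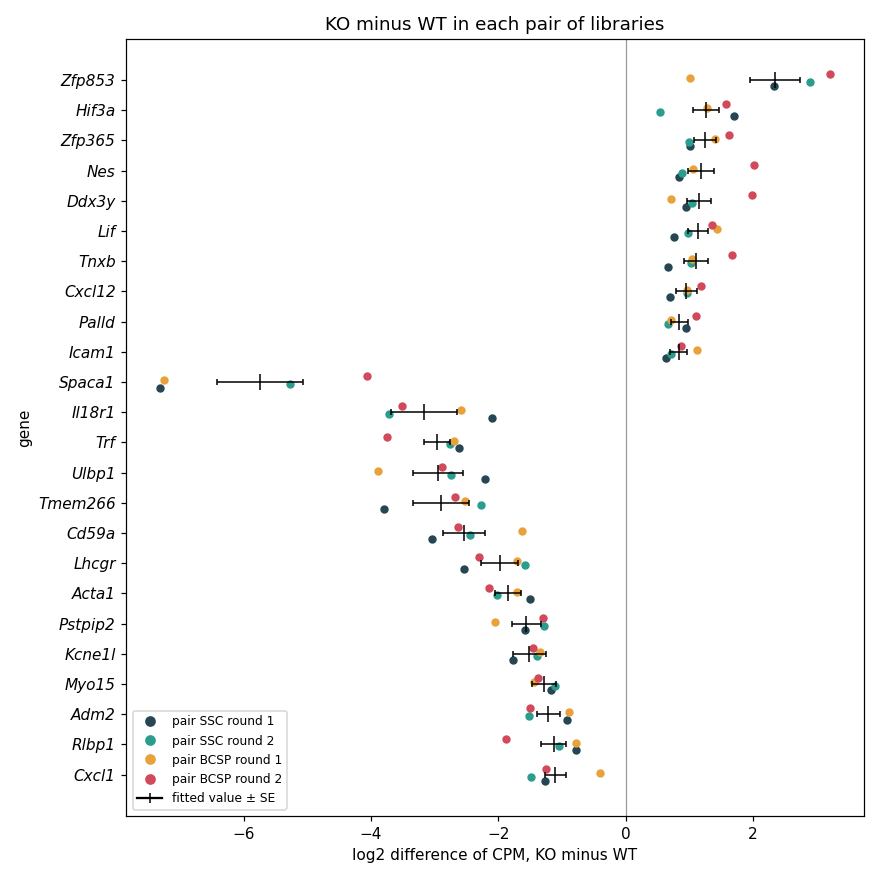
KO minus WT difference of log2 CPM for the same 24 genes, with a coloured point for each of the 4 pairs and a black mark for the fitted log2 fold change with its SE. Spaca1 spreads most widely, and Trf lies at -2.97 with 3 pairs close together and the BCSP round 2 pair at -3.75.

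Trf, Cd59a and Adm2, which code for an iron carrier, a complement inhibitor and a peptide hormone, were lower in KO in both populations and both rounds. Trf (chr9:103204001-103230444) codes for transferrin, the protein that carries iron in the blood and delivers it to cells. The WT libraries held 16.5 and 17.7 CPM of Trf in SSC and 25.7 and 41.1 CPM in BCSP. The KO libraries held 2.67 and 2.59 CPM in SSC and 3.97 and 3.03 CPM in BCSP. The lowest WT library lay above the highest KO library, and the KO libraries lay close together. Trf fell by 2.97 ± 0.20 on the log2 scale (SE, edgeR adjusted p = 4.88e-05), the lowest p-value of the comparison. It passed in 25 of 26 alternative analyses, the exception being the one without the SSC round 1 pair (edgeR adjusted p = 0.0514). Of the other iron genes in a list of 21 carriers, uptake, storage and export genes, none passed. Tfr2, a receptor of transferrin picked out after its values were seen, came nearest: it was at 0.749 to 0.962 CPM in WT and at 0.0903 to 0.238 CPM in KO, with no overlap (-2.31 ± 0.47, edgeR adjusted p = 0.103). Slc39a8, a metal ion importer, was at 0.58 ± 0.17 and Cp, the ferroxidase ceruloplasmin, at 0.41 ± 0.19 (edgeR adjusted p = 0.277 and 0.451). The median of the list was -0.07, beside 0.01 over all tested genes.

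Cd59a (chr2:104095801-104115354) codes for a membrane-anchored protein that blocks assembly of the complement attack complex. Cd59a stood at 3.75 and 2.57 CPM in WT SSC and at 2.01 and 4.90 CPM in WT BCSP. The KO values were 0.443 and 0.459 CPM in SSC and 0.638 and 0.772 CPM in BCSP. Every WT library lay above every KO library. Cd59a changed by a log2 value of -2.54 ± 0.33 (SE, edgeR adjusted p = 0.0110), and it passed in 16 of 26 alternative analyses. Among 15 tested complement components and regulators Cd59a was the 1 gene that passed. Cd55, another membrane regulator of complement, had the opposite sign in every pair (0.70 ± 0.26, edgeR adjusted p = 0.378), as did Cd46, also a membrane regulator (0.72 ± 0.33, edgeR adjusted p = 0.446).

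Adm2 (chr15:89322720-89324731) codes for adrenomedullin 2, a vasoactive peptide of the calcitonin family that is also known as a target of the ATF4 stress pathway. Its WT levels were 10.3 and 10.9 CPM in SSC and 9.15 and 11.4 CPM in BCSP. Its KO levels were 5.40 and 3.77 CPM in SSC and 4.90 and 3.997 CPM in BCSP. The groups were separate and each was narrow. Adm2 changed by a log2 value of -1.22 ± 0.18 (SE, edgeR adjusted p = 0.0225), and it passed in 14 of 26 alternative analyses. No other member passed among 7 tested genes of the adrenomedullin family and its receptors. None passed among 29 genes of the amino-acid and ATF4 response, whose median was 0.01 and of which 8 (27.6%) were lower and 3 higher in all 4 pairs. Nupr1, a stress-induced chromatin protein of that response, was at -0.53 ± 0.14 (edgeR adjusted p = 0.219).

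The cytokine and adhesion genes that passed moved in both directions. Lif, a cytokine of the interleukin 6 family, Icam1, an adhesion molecule for leukocytes, and Cxcl12, the chemokine that retains blood stem cells in marrow, rose in KO, while the neutrophil chemokine Cxcl1 fell. Lif was at 34.3 and 64.0 CPM in WT SSC, 58.3 and 125 CPM in KO SSC, 46.4 and 66.2 CPM in WT BCSP and 125 and 170 CPM in KO BCSP. The KO SSC round 1 library lay within the WT range, so the groups overlapped although each pair rose. The log2 change of Lif was 1.14 ± 0.16 (SE, edgeR adjusted p = 0.0183).

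Icam1 was at 44.6 and 81.2 CPM in WT SSC, 68.8 and 133 CPM in KO SSC, 52.4 and 96.5 CPM in WT BCSP and 114 and 176 CPM in KO BCSP. In both genotypes round 2 lay above round 1. The KO SSC round 1 library lay below both WT libraries of round 2, so the groups overlapped although each pair rose. The log2 change was 0.83 ± 0.13 (SE, edgeR adjusted p = 0.0359), and the gene passed in 9 of 26 alternative analyses.

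Cxcl12 was at 3.43 and 3.87 CPM in WT SSC, 5.54 and 7.55 CPM in KO SSC, 7.07 and 6.89 CPM in WT BCSP and 13.7 and 15.7 CPM in KO BCSP. The BCSP libraries were higher than the SSC libraries of the same genotype, and the groups overlapped across populations. The log2 change was 0.95 ± 0.16 (SE, edgeR adjusted p = 0.0486), and the gene passed in 7 of 26 alternative analyses.

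Cxcl1 was at 63.2 and 132.6 CPM in WT SSC, 26.2 and 47.5 CPM in KO SSC, 57.8 and 161.7 CPM in WT BCSP and 43.7 and 67.97 CPM in KO BCSP. The difference was smallest in the BCSP round 1 pair, and the highest KO library lay above the lowest WT libraries. Cxcl1 changed by a log2 value of -1.11 ± 0.17 (SE, edgeR adjusted p = 0.0268).

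In the list of 25 inflammatory cytokine and NF-kB genes, 3 were called higher (Lif, Icam1, Cxcl12) and 1 lower (Cxcl1). Another 11 had the higher sign in all 4 pairs without passing, which makes 14 of 25 (56%) against 10.6% of all tested genes, and 2 had the lower sign throughout. The list's median was 0.53 on the log2 scale, against 0.01 over all genes, and it was 0.48 without the BCSP round 2 pair and 0.68 with the level of Y-linked genes in the model. Subunits of NF-kB, the transcription factor that drives many such genes, were among those that did not pass: Relb at 0.69 ± 0.14, Nfkb2 at 0.55 ± 0.14 and Nfkb1 at 0.53 ± 0.14 (edgeR adjusted p = 0.101, 0.217 and 0.219). Tnfaip3, an enzyme that restrains the pathway, was at 0.86 ± 0.17 (edgeR adjusted p = 0.0975), and Nos2, the inducible nitric oxide synthase, at 1.002 ± 0.31 (edgeR adjusted p = 0.305). Il6 was lower in all 4 pairs at -0.45 ± 0.21 (edgeR adjusted p = 0.449). These 6 genes were picked out of the list after their values were seen. Neutrophil markers differed between libraries beside these genes, with a summed level of 1.02 to 196 CPM in WT and 2.80 to 57.7 CPM in KO. Their part in the result was not tested.

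Other immune genes fell in KO. Ulbp1, a ligand of the natural killer receptor NKG2D, was at 1.73 to 2.34 CPM in the WT libraries and at 0.120 to 0.361 CPM in the KO libraries, with no overlap (-2.94 ± 0.39, edgeR adjusted p = 0.0132). Pstpip2, an adaptor protein of the cell membrane and cytoskeleton whose loss causes autoinflammatory bone disease in mice, was at 4.29 to 5.96 CPM in WT and at 1.42 to 1.86 CPM in KO (-1.56 ± 0.22, edgeR adjusted p = 0.0183). Il18r1, a subunit of the interleukin 18 receptor, averaged under 1 CPM. It was at 0.909 and 2.16 CPM in WT SSC, 0.199 and 0.150 CPM in KO SSC, 0.271 and 0.920 CPM in WT BCSP and 0.0319 and 0.0657 CPM in KO BCSP (-3.17 ± 0.52, edgeR adjusted p = 0.0426). In each of these 3 genes every WT library lay above every KO library. The labels give bulk samples, in which fewer cells of a type and less RNA per cell cannot be told apart.

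Genes of antigen presentation did not pass, but the MHC class II members of the list shared a sign. Of 20 tested genes, 7 (35%) were lower in all 4 pairs against 9.95% of all tested genes, and 2 were higher in all 4. The median over the 20 genes was -0.17, and it was 0.01 without the BCSP round 2 pair. The list also holds class I genes of either sign, from H2-Q4 at 0.66 to H2-T22 at -0.17. In the SSC pairs and the BCSP round 1 pair, the class II genes H2-Ab1, H2-DMb1, H2-Aa and H2-DMa were at -0.71 to -1.67. H2-Ab1 and H2-DMb1 came nearest to the threshold with -1.20 ± 0.22 and -1.21 ± 0.22 (edgeR adjusted p = 0.0728 for each). H2-Ab1 was at 19.7 and 15.2 CPM in WT SSC, 9.67 and 8.25 CPM in KO SSC, 8.89 and 17.98 CPM in WT BCSP and 4.41 and 5.44 CPM in KO BCSP. H2-Aa was at -1.78 ± 0.37 and H2-DMa, which helps load peptides, at -0.96 ± 0.21 (edgeR adjusted p = 0.115 and 0.149). Lymphoid markers, which include cells that carry class II, summed to 0.586 to 45.6 CPM in WT and 0.541 to 10.3 CPM in KO, with the 2 highest sums in the WT round 1 libraries. The immunoglobulin gene Igkc alone was at 42.8 CPM in WT SSC round 1 and 35.2 CPM in WT BCSP round 1, beside sums of 45.6 and 37.2 CPM. The part of lymphoid cells in the result was not tested.

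Genes of the cytoskeleton and the matrix moved both ways. Nes (chr3:87971078-87980451), which codes for nestin, an intermediate filament protein of progenitor cells, was at 9.98 and 13.9 CPM in WT SSC and at 12.3 and 8.39 CPM in WT BCSP. The KO libraries held 17.9 and 25.6 CPM of Nes in SSC and 25.6 and 33.9 CPM in BCSP. The lowest KO library lay above the highest WT library, and the difference was widest in the BCSP round 2 pair. Nes rose by 1.18 ± 0.20 (SE, log2, edgeR adjusted p = 0.0490), the call nearest to the threshold of those named. This gene passed in 12 of 26 alternative analyses. The other intermediate filament genes did not pass: Synm, synemin, was at 0.44 ± 0.18, Vim, vimentin, at -0.35 ± 0.15 and Lmnb1, lamin B1, at -0.36 ± 0.15 (edgeR adjusted p = 0.403, 0.429 and 0.410).

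Palld, an actin-bundling scaffold protein, was at 31.3 and 50.8 CPM in WT SSC, 60.1 and 80.1 CPM in KO SSC, 44.2 and 44.4 CPM in WT BCSP and 72.1 and 95.3 CPM in KO BCSP. All KO libraries lay above all WT libraries (0.84 ± 0.14, edgeR adjusted p = 0.0426). Tnxb, the matrix protein tenascin X, was at 3.82 to 5.05 CPM in the WT libraries and at 6.06 to 14.5 CPM in the KO libraries (1.10 ± 0.19, edgeR adjusted p = 0.0486). In the tendon and fibrous matrix list Tnxb was the 1 of 21 genes that passed. Of the list, 10 genes (47.6%) were higher in all 4 pairs and 1 was lower, with a median of 0.22 that was 0.09 after a correction for exon length. Postn, the matricellular protein periostin, and Fbn2, fibrillin 2, each stood at 0.56 (SE 0.14 and 0.15), and Tnmd, the tendon marker tenomodulin, at 0.56 ± 0.18, without passing (edgeR adjusted p = 0.200, 0.230 and 0.319).

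Acta1, the actin of skeletal muscle, was at 9.07 and 17.5 CPM in WT SSC, 3.19 and 4.31 CPM in KO SSC, 4.87 and 15.1 CPM in WT BCSP and 1.48 and 3.41 CPM in KO BCSP. Round 2 lay above round 1 in both genotypes, and the lowest WT library was above the highest KO library. Its log2 change was -1.85 ± 0.20 (SE, edgeR adjusted p = 0.00462). Of 7 tested skeletal muscle markers Acta1 was the 1 that passed. Tnnt3, a fast muscle troponin, had the same sign in every pair (-0.71 ± 0.21, edgeR adjusted p = 0.292), and the list's median was -0.07. The 7 markers summed to 16.1 to 32.4 CPM in WT and 12.6 to 17.2 CPM in KO, a sum that includes Acta1, and the part of muscle cells in the result was not tested. Myo15, an unconventional myosin known from the hair cells of the inner ear, was at 4.74 to 7.48 CPM in WT and at 2.11 to 2.88 CPM in KO (-1.28 ± 0.19, edgeR adjusted p = 0.0225).

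The sort markers and the TGF-beta pathway leaned towards higher levels in KO. Of 18 skeletal stem cell and sort markers, 7 (38.9%) were higher in all 4 pairs and 1, Eng, was lower, with a median of 0.36. Cxcl12 was the 1 that passed, and Pdgfrb, a receptor of stromal cells, was at 0.50 ± 0.13 (edgeR adjusted p = 0.226). Itgav, the integrin alpha V gene whose product is used in the sort, was at 0.45 ± 0.16 (edgeR adjusted p = 0.353). Fitted changes were above 0 for 16 of the 18 markers and below 0 for 2, Eng and Cd200. Eng stood at -0.45 ± 0.19 and Cd200 at -0.06 ± 0.14 (edgeR adjusted p = 0.422 and 0.905), and Cd200 changed sign between pairs. By pair, the median of the marker list was 0.02 for BCSP round 1 and 0.21 to 0.36 for the rest. Of 26 TGF-beta and activin genes none passed, 12 (46.2%) were higher in all 4 pairs and 1 was lower, with a median of 0.25. The 4 of lowest p-value were Ltbp2 and Ltbp1, latent TGF-beta binding proteins, at 0.79 ± 0.17 and 0.53 ± 0.14, Acvrl1, a type I receptor, at 0.71 ± 0.16, and Tgif1, a repressor of SMAD targets, at 0.56 ± 0.14 (edgeR adjusted p = 0.138, 0.219, 0.153 and 0.194). With the level of Y-linked genes in the model the medians were 0.07 for the sort markers and 0.05 for TGF-beta, and after a correction for exon length they were 0.23 and 0.12.

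Hif3a, a member of the hypoxia-inducible factor family whose isoforms can restrain the others, rose in KO. It was at 2.24 and 7.61 CPM in WT SSC, 7.27 and 11.02 CPM in KO SSC, 3.09 and 5.76 CPM in WT BCSP and 7.51 and 17.2 CPM in KO BCSP. The WT SSC round 2 library lay above the 2 lowest KO libraries. The log2 change was 1.27 ± 0.20 (SE, edgeR adjusted p = 0.0359). None of the 27 tested entries of the glycolysis and hypoxia list passed. Of these 14 (51.9%) were lower in all 4 pairs and 4 were higher, with a median of -0.42, and in 11 the KO libraries all lay below the WT libraries (2.25% of all tested genes did so). Slc16a3, a lactate exporter, was at 140 and 107 CPM in WT SSC, 70.0 and 68.5 CPM in KO SSC, 78.0 and 152 CPM in WT BCSP and 76.3 and 55.7 CPM in KO BCSP. It was at -0.81 ± 0.20 and the glycolytic enzyme Pgam1 at -0.66 ± 0.17 (edgeR adjusted p = 0.190 and 0.219). The list's median was -0.34 and -0.29 in the SSC pairs, -0.01 in the BCSP round 1 pair and -0.93 in the BCSP round 2 pair. Without the BCSP round 2 pair it was -0.23, and with the level of Y-linked genes in the model, described further on, it was 0.36.

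Zfp365, a zinc finger gene known for a role in genome stability, was at 7.49 and 12.9 CPM in WT SSC, 15.1 and 25.5 CPM in KO SSC, 8.77 and 9.77 CPM in WT BCSP and 23.2 and 30.0 CPM in KO BCSP. All KO libraries lay above all WT libraries. Zfp365 rose by 1.25 ± 0.17 (SE, log2, edgeR adjusted p = 0.0142), the lowest p-value among the higher genes. It lies on chr10:67886103-67912662, 4.98 Mb from Tet1. Of 143 tested genes within 10 Mb of Tet1, a set formed after the data were seen, it was the 1 that passed. In that set 21 genes (14.7%) were higher in all 4 pairs and 10 (6.99%) were lower, against 10.6% and 9.95% of all tested genes, and the median was 0.11. Slc16a9, a carnitine and creatine transporter in this stretch, was at 1.10 ± 0.27 (edgeR adjusted p = 0.190).

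**Figure D3:**
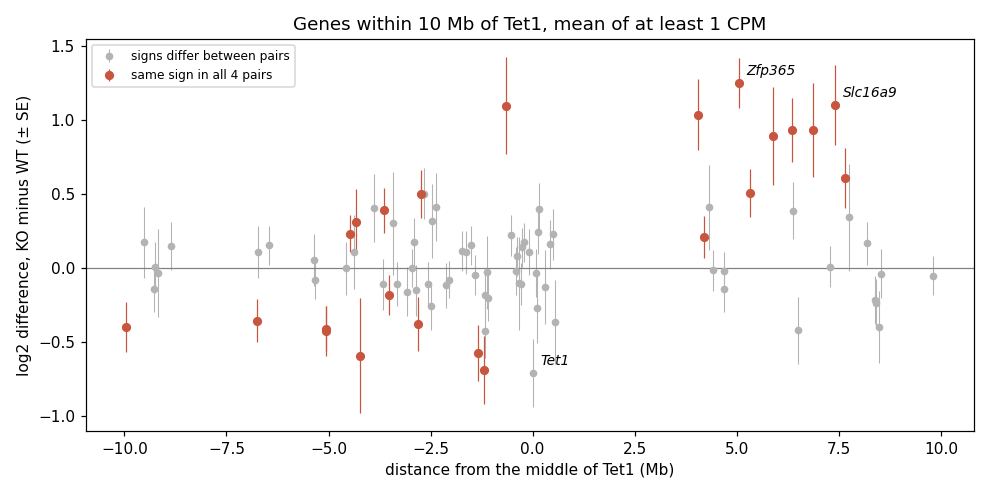
Log2 fold change with its SE of the 88 genes of at least 1 CPM within 10 Mb of Tet1, against distance from the middle of Tet1 in Mb, with red for the 23 genes of 1 sign in all 4 pairs. Zfp365 at 1.25 and Slc16a9 at 1.10 lie on the same side of Tet1, which is itself at -0.71.

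Zfp853, another zinc finger gene, was at 0.306 and 0.270 CPM in WT SSC, 1.59 and 2.11 CPM in KO SSC, 1.399 and 0.411 CPM in WT BCSP and 2.84 and 3.93 CPM in KO BCSP. The WT BCSP round 1 library stood above the other WT libraries and below all KO libraries. Zfp853 rose by a log2 value of 2.34 ± 0.40 (SE, edgeR adjusted p = 0.0486).

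Ddx3y, a Y-linked RNA helicase, was at 23.2 to 39.7 CPM in the WT libraries and at 62.1 to 92.2 CPM in the KO libraries (1.16 ± 0.19, edgeR adjusted p = 0.0378). The other Y-linked genes tested had the same sign in every pair without passing: Eif2s3y, a translation initiation factor subunit, at 1.07 ± 0.21, Uty at 0.91 ± 0.18 and Kdm5d at 0.77 ± 0.19, both histone demethylase genes (edgeR adjusted p = 0.0827, 0.0950 and 0.209). Xist, the RNA that silences an X chromosome in female cells, was at 441 and 561 CPM in WT SSC, 74.95 and 291 CPM in KO SSC, 621 and 277 CPM in WT BCSP and 231 and 275 CPM in KO BCSP. Xist was lower in KO in every pair, by a small margin in BCSP round 2, and did not pass (-1.22 ± 0.38, edgeR adjusted p = 0.319). Each library thus held both Xist and Y-linked transcripts. The 4 Y-linked genes summed to 41.9 to 71.7 CPM in WT and to 98.0 to 149 CPM in KO. Their level and the genotype thus move together in these libraries. In BCSP round 2 the Y-linked sum was 41.9 CPM in WT and 149 CPM in KO, while Xist was at 277 and 275 CPM. The share of each sex was not measured. With the level of the Y-linked genes added to the model, 246 genes passed, and of the 24 genes 2 did, Trf (log2 change -2.11, edgeR adjusted p = 0.00703) and Pstpip2 (-2.03, edgeR adjusted p = 0.0410). Among those that did not, the log2 change was 1.08 for Lif, 0.97 for Icam1, -3.40 for Ulbp1 and -1.25 for Myo15, near or beyond their values without that term. It was 0.34 for Nes, -0.19 for Rlbp1 and 0.62 for Zfp853, well below them in size. Ddx3y was at 0.13, but it is 1 of the 4 genes that make up the level, so that fall was built in. For Cd59a the log2 change was -1.47 and for Adm2 -0.79, also smaller than without that term (edgeR adjusted p = 0.316 and 0.319). For Cxcl1, Palld, Tnxb and Hif3a it was -0.52, 0.42, 0.60 and 0.81, again smaller in size. In that model 33 of the named genes that had not passed took the opposite sign, among them Tet3, Slc16a3, Mcm5, Manf, Hmgcs1 and Timp3. Eif2s3y and Kdm5d, also among the 33, are part of that level. The groups do not overlap in that level, so genotype cannot be told apart from the Y-linked level, or from sex makeup, for any gene.

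A hormone receptor, a retinoid carrier and genes of channels and membranes were also lower in KO. Lhcgr, the receptor of luteinising hormone, was at 3.70 and 2.93 CPM in WT SSC, 0.623 and 0.970 CPM in KO SSC, 5.73 and 3.93 CPM in WT BCSP and 1.75 and 0.780 CPM in KO BCSP. No KO library reached the lowest WT library (-1.98 ± 0.29, edgeR adjusted p = 0.0210). Rlbp1, a carrier of retinaldehyde known from the eye, was at 19.0 to 32.8 CPM in WT and at 8.88 to 14.5 CPM in KO (-1.13 ± 0.19, edgeR adjusted p = 0.0486). Among 18 tested genes of the retinoid pathway Rlbp1 was the 1 that passed. Cyp26b1, which breaks down retinoic acid, was at 0.33 ± 0.13, and the receptor gene Rara at 0.32 ± 0.13 (edgeR adjusted p = 0.403 and 0.428).

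Kcne1l, an accessory subunit of potassium channels, was at 1.99 and 1.37 CPM in WT SSC, 0.569 and 0.511 CPM in KO SSC, 3.65 and 3.15 CPM in WT BCSP and 1.42 and 1.13 CPM in KO BCSP. Within each population the groups were separate, but KO BCSP round 1 lay above WT SSC round 2 (-1.51 ± 0.26, edgeR adjusted p = 0.0486). It passed in 7 of 26 alternative analyses. Tmem266, a voltage-sensing membrane protein that averaged under 1 CPM, was at 0.864 to 1.59 CPM in WT and at 0.0994 to 0.223 CPM in KO (-2.90 ± 0.44, edgeR adjusted p = 0.0268).

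Spaca1, a membrane protein of the sperm acrosome, had the widest fitted change among the 24 genes of 1 sign in all pairs. Its counts were 329 and 529 in WT SSC, 0 and 12 in KO SSC, 275 and 762 in WT BCSP and 0 and 37 in KO BCSP. These are 2.51, 4.08, 2.40 and 5.31 CPM in the WT libraries and at most 0.304 CPM in the KO libraries. Both KO libraries at 0 were of round 1, and the KO counts of round 2 were low but not 0. The fitted log2 change was -5.75 ± 0.68 (SE, edgeR adjusted p = 0.00698), a size that depends on how counts of 0 are handled.

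The 4 genes that passed without the same sign in every pair were read almost entirely in WT libraries of round 1. They were the immunoglobulin heavy chain gene Ighg2c, the airway secretory gene Bpifa1, and Cyp2a5 and Cyp2g1, cytochrome P450 genes known from the nasal lining. Cyp2a5 had 479 counts in WT SSC round 1, 451 in WT BCSP round 1, 1 in KO BCSP round 1 and 0 in the other libraries. Bpifa1 had 394 and 381 counts in the same WT libraries, 1 count in WT SSC round 2 and 0 elsewhere, and Cyp2g1 had 236 and 237 counts and 0 elsewhere. Ighg2c had 4473 counts in WT BCSP round 1, 20 in WT SSC round 1, 5 in KO BCSP round 1, 1 in KO SSC round 1 and 0 in round 2. In WT libraries of round 2 these 4 genes were thus as low as in KO, so no difference between genotypes was seen in that round. Cyp2a5, Bpifa1 and Cyp2g1 were the 3 genes of at least 1 CPM in both WT round 1 libraries and under 0.05 CPM in the other 6, and no gene met that description for the other 3 combinations of genotype and round.

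**Figure D4:**
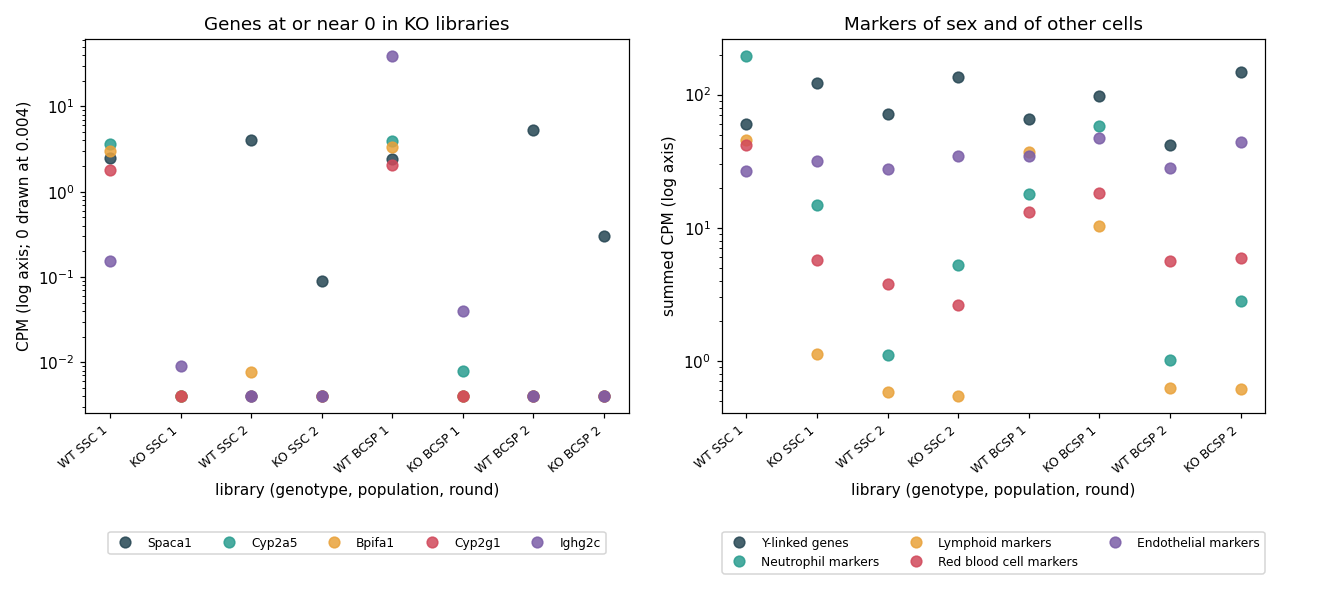
Left, CPM on a log axis of Spaca1 and of the 4 genes that passed without the same sign in every pair, by library. Cyp2a5, Bpifa1 and Cyp2g1 are high in both WT round 1 libraries alone, and Ighg2c in WT BCSP round 1 alone. Right, summed CPM on a log axis of Y-linked genes and of markers of other cells, where Y-linked sums are 41.9 to 71.7 in WT and 98.0 to 149 in KO.

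Several lists of metabolism and growth leaned to lower levels in KO without a gene that passed. Of 21 genes of endoplasmic reticulum folding and the unfolded protein response, 13 (61.9%) were lower in all 4 pairs and none higher, with a median of -0.27. Sdf2l1, Manf, Creld2 and Pdia4, folding factors of that compartment, were at -0.82 ± 0.24, -0.59 ± 0.17, -0.52 ± 0.16 and -0.48 ± 0.14 (edgeR adjusted p = 0.281, 0.262, 0.292 and 0.277). Of 25 DNA replication genes 11 (44%) were lower in all 4 pairs and none higher, with a median of -0.37. Mcm5, Mcm7 and Mcm2, subunits of the replicative helicase, were at -0.64 ± 0.19, -0.48 ± 0.17 and -0.46 ± 0.15 (edgeR adjusted p = 0.285, 0.353 and 0.314). Of 25 mitotic genes 9 (36%, against 9.95% of all tested genes) were lower in all 4 pairs. Their list had a median of -0.33, with -0.01 and -0.49 in the SSC pairs (rounds 1 and 2) and -0.46 and -0.61 in the BCSP pairs. Among them Ube2c, which marks proteins for destruction in mitosis, was at -0.60 ± 0.21 and Top2a, a topoisomerase, at -0.37 ± 0.15 (edgeR adjusted p = 0.351 and 0.413). Nuclear genes of oxidative phosphorylation had 8 of 30 (26.7%) lower in all 4 pairs and a median of -0.33, which was -1.14 in the BCSP round 2 pair and 0.11 in the BCSP round 1 pair. Without the BCSP round 2 pair the medians were -0.05 for oxidative phosphorylation, -0.23 for replication, -0.34 for mitosis and -0.17 for ER folding. With the level of Y-linked genes in the model they were 0.80, 0.22, -0.07 and -0.01.

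Cholesterol genes leaned the other way. Of 21 synthesis and uptake genes, 11 (52.4%) were higher in all 4 pairs and none lower, with a median of 0.23, and none passed. Pmvk and Hmgcs1, enzymes of the mevalonate pathway, were at 0.41 ± 0.14 and 0.36 ± 0.16 (edgeR adjusted p = 0.342 and 0.442). Of 20 matrix protease, inhibitor and joint-damage genes, 6 (30%) were higher in all 4 pairs and none lower. Timp3, an inhibitor of matrix proteases, was at 0.67 ± 0.16 and Epas1, the hypoxia-inducible factor 2 alpha gene, at 0.70 ± 0.19 (edgeR adjusted p = 0.176 and 0.241). Cartilage matrix genes showed no common sign, with 2 of 25 higher and 5 lower in all 4 pairs and a median of -0.07. Epyc, a cartilage proteoglycan, was at -0.69 ± 0.15 and Prg4, the joint lubricant lubricin, at 0.67 ± 0.21 (edgeR adjusted p = 0.141 and 0.304). Of 21 immediate-early and heat-shock genes none passed, 5 were higher and 5 lower in all 4 pairs, and the median was 0.04. The 2 heat-shock genes of that list nearest to the threshold, Hspa1b and Hspa1a, were at 0.93 ± 0.17 and 0.79 ± 0.17, with edgeR adjusted p of 0.0736 and 0.121.

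**Figure D5:**
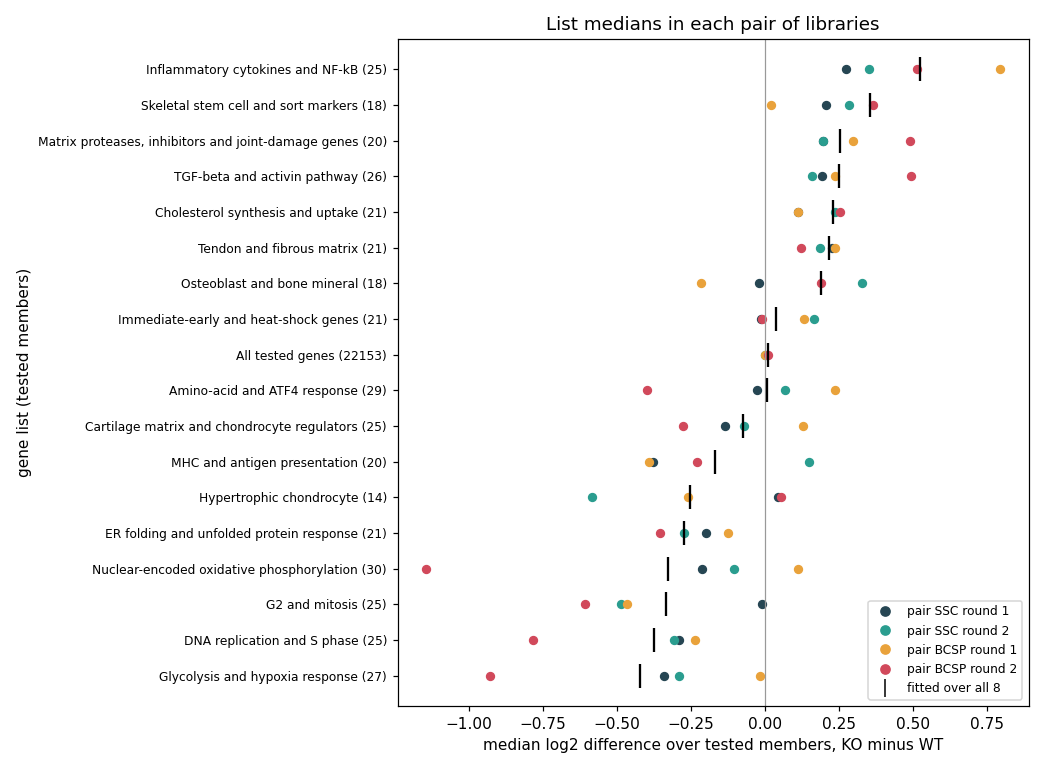
Median KO minus WT log2 difference of 17 gene lists and of all tested genes, with a coloured point for each pair and a black mark for the fit over all 8 libraries. The inflammatory list is above 0 in all 4 pairs, and the BCSP round 2 pair lies farthest from 0 for oxidative phosphorylation at -1.14 and for glycolysis at -0.93.

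The differences were not of the same width or direction in the 4 pairs, which share no library. Over 12639 genes of at least 1 CPM, the KO minus WT differences had an SD of 0.445 and 0.380 in the SSC pairs, 0.417 in BCSP round 1 and 0.814 in BCSP round 2. As a description across genes, which are not independent, Pearson's r between pairs was highest between SSC round 2 and BCSP round 2 at 0.46, with 67.6% of genes of 1 direction. It was lowest between the BCSP pairs at 0.034, with 47.9% of 1 direction. The differences of the BCSP round 2 pair also went with exon length (Spearman 0.484 across genes), as those of the other pairs did less (-0.137 to 0.255).

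Few genes passed a test for a genotype effect that differed between populations or rounds. With 3 residual degrees of freedom, the small number of calls does not show that the effects were alike. The genotype by population test called 2 genes (0.00903% of those tested), Igkc and Stfa2, and the genotype by round test called 1 (0.00451%), Gm6472. At an unadjusted p of 0.05 they passed 338 (1.53%) and 1427 (6.44%) genes. Igkc, the kappa light chain constant gene, was at 42.8 CPM in WT SSC round 1, 35.2 CPM in WT BCSP round 1 and 9.51 CPM in KO BCSP round 1, and at 0.0154 CPM or less in the other 5 libraries. Stfa2, a stefin of neutrophils, was at 19.2 CPM in WT SSC round 1, 3.08 CPM in KO BCSP round 1 and under 1 CPM in the other 6. Both genes were read chiefly in libraries of round 1. In WT SSC, WT BCSP and KO BCSP of round 1 the lymphoid marker sum was 45.6, 37.2 and 10.3 CPM. These sums lay little above Igkc alone, so they give no separate measure of lymphoid cells. Ptprc was at 1.09, 0.00874 and 0.311 CPM there. The neutrophil marker sum was 196 CPM in WT SSC round 1 and 57.7 CPM in KO BCSP round 1, the libraries highest in Stfa2. Gm6472 is a predicted gene on the X chromosome, at 1.94 to 10.6 CPM in round 1 and 47.0 to 102 CPM in round 2. None of the 24 genes described above passed either test.

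Markers of other cells were low beside the cartilage genes and varied between libraries. Red blood cell markers summed to 3.74 to 42.0 CPM in WT and 2.64 to 18.3 CPM in KO, and endothelial markers to 26.6 to 34.7 CPM in WT and 31.7 to 47.1 CPM in KO. Most of the endothelial sum was 1 gene, Erg, at 18.7 to 29.2 CPM in WT and 25.3 to 41.0 CPM in KO. The defining endothelial gene Cdh5 was at most 0.227 CPM in WT and 0.501 CPM in KO. Mast cell and megakaryocyte markers summed to 1.69 to 2.85 CPM in WT and 3.46 to 5.32 CPM in KO, so every KO sum was above every WT sum. Pericyte and smooth muscle markers overlapped, at 839 to 1240 CPM in WT and 967 to 1133 CPM in KO. The part of these cells in the differences between genotypes was not tested.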

How the data were processed

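The deposited table holds whole-number counts per gene for 8 libraries, made by the authors from paired reads of 150 bases. STAR, featureCounts and DESeq2 with the build mm10 are named, without versions, per the submitters' processing notes. The annotation and the strand of counting are not given in the sources used here, so antisense genes and close paralogs may share reads. Columns spelled SCC were taken as SSC and those spelled BCP as BCSP, since each then matches 1 title. Library totals ran from 104782544 to 168004119 counts, so 1 CPM is at least 104 counts.

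Counts were tested with edgeR 4.0.16 in R 4.3.3, in a robust quasi-likelihood fit of population, round and genotype (4 residual degrees of freedom), with TMM scaling and filterByExpr (minimum count 10, total 15). Of 55471 entries 22153 were tested, with Benjamini-Hochberg adjustment over all of them and a threshold of 0.05. Interactions of genotype with population and with round were added in fits of their own, with 3 residual degrees of freedom. Signs per pair used log2 CPM with a prior count of 2. Gene positions came from GENCODE M21 by gene ID (55230 entries matched). The procedure was tested on simulated data, with counts drawn independently for each gene and library. Those counts held no exon length trend or Y-linked difference between genotypes, so the simulation does not cover these features. DESeq2 1.42.0 and limma 3.58.1 (voom), other scalings, filters, blocks and covariates, and leaving out each library or pair were run as alternatives.

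The comparison, the 34 gene lists and the named genes were chosen with earlier results of these data known. Of the complement list, 1 gene is not reported here. Named were Tet1, then Trf, Cd59a, Adm2 and Nes, then up to 15 called genes of 1 sign per direction with at least 1 CPM, up to 4 genes of lowest p-value and at least 1 CPM per list, kept where all pairs shared a sign (a narrowing made after the data were seen), and the called interaction genes. Of the called genes without 1 sign, the 3 of lowest p-value were named by the rule. Il18r1, Tmem266, Cyp2g1, Slc16a9, Xist, Tfr2, Relb, Nfkb1, Nfkb2, Tnfaip3, Nos2 and Il6 were named after their values were seen.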

Additional observations from a re-analysis of the deposited data

Results flagged for a closer look

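In 7 of 120 named genes, 1 of the 4 pair differences (KO minus WT, log2) lay far from the other 3 by Dixon's criterion, which chance alone meets in about 1 in 20. The pair that stood apart was BCSP round 2 for Trf at -3.75 (the others at -2.77 to -2.62), Ndufa4 at -1.67 (-0.318 to -0.255), Mcm2 at -0.808 (-0.343 to -0.33) and Nos2 at 2.45 (0.48 to 0.794). It was BCSP round 1 for Cp at 0.12 (0.502 to 0.53) and Stard4 at 0.111 (0.338 to 0.382). For Epyc it was SSC round 1, at -0.453 (-0.793 to -0.754).

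The genotype by population test called Igkc, with a BCSP minus SSC difference of 12.5 on the log2 scale (edgeR adjusted p = 0.000433). It also called Stfa2, with 7.09 (edgeR adjusted p = 0.0304). Both values rest on libraries with counts at or near 0 and their size depends on how those are handled. In round 2 no library had more than 2 counts of Igkc or 13 of Stfa2. Each difference thus rests on round 1, with 1 library per group, and was not repeated. In round 1 Igkc had 5602 counts in WT SSC, 0 in KO SSC, 4029 in WT BCSP and 1192 in KO BCSP. The genotype by round test called Gm6472, with -2.79 for round 2 minus round 1 (edgeR adjusted p = 0.0312).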

How the results depend on the processing

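Beside the 28 genes called, 1 gene passed with no replicate block, which is Trf, and 31 genes passed with population and round blocked together as 4 pairs, of which 24 are among the 28. The titles name the round of each library, but the labels do not say what libraries of a round shared. Deviations of same-numbered libraries correlated at 0.059 (WT BCSP with KO BCSP) to 0.645, so pairing was not seen between every 2 groups. The count was 458 with no filter, 2 with at least 1 CPM in 4 libraries, 310 with DESeq2 and 246 with the level of Y-linked genes as a covariate. It was 177 and 175 in rounds 1 and 2 alone, 179 in SSC alone and 12 in BCSP alone, each with 1 residual degree of freedom. Leaving out 1 library gave 1 (without WT SSC round 1) to 359 (without WT BCSP round 2), with 4 without KO BCSP round 1, 7 and 8 without KO SSC rounds 1 and 2, 11 without WT SSC round 2, 14 without KO BCSP round 2 and 41 without WT BCSP round 1. The arm left with 1 library was then assumed to vary like the others. These pair analyses were added after the data were seen: 14 without BCSP round 1, 376 without BCSP round 2, 0 without SSC round 1 (1394 at an unadjusted p of 0.05) and 11 without SSC round 2. The share of higher genes was 35.7%, 57.4% with DESeq2, 47.4% with limma-voom, 49.8% with no filter and 54.9% with the Y-linked level.

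The population interaction called 2 genes, 17 with no filter, 0 with at least 1 CPM in 4 libraries (84 at an unadjusted p of 0.05), 0 with DESeq2 (621 unadjusted), 0 with no replicate block (282 unadjusted), and 0 to 2365 without 1 library (the highest without WT BCSP round 1). The round interaction called 1 gene, 81 with no filter, 0 with at least 1 CPM in 4 libraries (831 unadjusted), 11 with DESeq2, 0 with limma-voom (1446 unadjusted), and 2 to 4061 without 1 library (the highest without WT SSC round 2). The cause was not tested.

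With the level of Y-linked genes as a term, 33 of the named genes, none of them called, changed sign on the log2 scale: Slc39a8 -0.029, Pcbp1 0.42, Cd46 -0.41, Shmt2 0.11, Phgdh 0.52, Tet3 -0.18, Ndufb7 0.56, Ndufa4 0.56, Ndufs8 0.60, Slc16a3 0.44, Pgam1 0.27, Bnip3 0.13, Pgk1 0.52, Mcm5 0.22, Mcm2 0.021, Mcm7 0.35, Bub1b 0.040, Birc5 0.31, Hmgcs1 -0.30, Manf 0.28, Sdf2l1 0.12, Creld2 0.19, Fbn2 -0.042, Itgav -0.29, Timp3 -0.047, Epas1 -0.021, Hsph1 -0.17, Hoxd11 -0.081, Hoxa10 0.049, Tnnt3 0.34, Eif2s3y -0.17, Kdm5d -0.12 and Nos2 -0.39. Eif2s3y and Kdm5d are among the genes that make up the level, so their values are not separate from it. The cause of the other changes was not tested. List medians with the Y-linked level, or without the BCSP round 2 pair, were added after the data were seen. The medians of the inflammatory, ER, mitosis, cholesterol, TGF-beta, tendon, protease and sort marker lists had the same sign in 15 of 15 alternatives, some of them near 0, and those of glycolysis, S phase and oxidative phosphorylation in 14, the exception being the Y-linked level. At 104 counts or more per CPM, the number of libraries limits the precision more than depth for genes above 1 CPM.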
